A study of Nematostella vectensis with 17 samples.

Results

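The 200 gene models with the highest transcript levels in control gastrulae of the sea anemone Nematostella vectensis were described across 14 RNA-seq libraries of whole embryos. They were chosen by their mean CPM (a gene's count divided by the library's summed count, times 1000000) over the 4 control libraries, and are 200 of the 25729 gene models in the table, or 0.777%. The control libraries came from gastrulae injected with a control morpholino, whose sequence, concentration and volume the labels do not give. The other embryos received a morpholino, a synthetic antisense oligomer, against brachyury, either translation-blocking (6 libraries) or splice-blocking (4 libraries), each at 500 µM in 3 to 5 pl. The labels give no strain or genotype. All embryos were raised at 21 °C and gave poly(A) RNA read as 50 bp single ends in biological replicates. In such bulk samples, fewer cells of a type and less RNA per cell cannot be told apart.

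Brachyury is a T-box transcription factor, and in Nematostella it is expressed around the blastopore, the opening through which the gastrula internalises its endoderm. The commonest poly(A) transcripts of animal embryos generally encode products that every cell needs in bulk, such as ribosomal proteins, translation factors and cytoskeletal proteins. The files pair no names with the gene models, and 0 of the identifiers matched the RefSeq gene table, so no member is given a function here, tissue markers could not be checked, and brachyury itself could not be matched to a gene model. Few identifiers are printed for the same reason. CPM is not divided by transcript length, so the order of members is an order of read share and not of molecules.

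The 2 brachyury morpholinos are shown because the tested comparison sets the embryos that received them against each other. Capitals mark the letters CAT in the translation-blocking oligomer, which pair with an ATG; the splice-blocking one, in lower case throughout, holds these letters as well.
BraATGMO: tcgtccgagtgCATgtccgactatg
BraSpliceMO: tccctggttgtcaaccataccgtcc

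The libraries held 12289649 to 80132810 counts over gene models, with control library 1 the deepest. The lowest count of a member in a library was 2094, at which counting error alone gives a coefficient of variation of 2.19%. Every member passed the filter on low counts (200 of 200). No 2 libraries of a group differed by counting noise alone. Over the members, chi-square divided by its degrees of freedom was 130 to 1248 in the 27 pairs, far above the value near 1 that such noise gives. These values cannot tell separate preparations of the same RNA from separate samples.

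Reads were spread over many genes, with a steep start. Mean control levels ran from 11023 CPM at rank 1 through a median of 949 to 627 at rank 200. Above 2000 CPM lay 14 members, and above 1000 CPM 87. The highest member by itself took 1.1% of control counts, the 10 highest 4.30%, the 50 highest 10.8% and all 200 took 23.9%. The 1000 highest genes took 48.0%. The curve was flat at the boundary: NVE21507 and NVE3351, the last members, stood at 632 ± 83.9 and 627 ± 80.3 CPM (SD, n = 4), and NVE14478 and NVE21175, just outside, at 624 ± 86.7 and 623 ± 50.4. These 4 levels differed by less than the SD of any of them, so the boundary separates genes whose levels were not told apart.

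**Figure D1:**
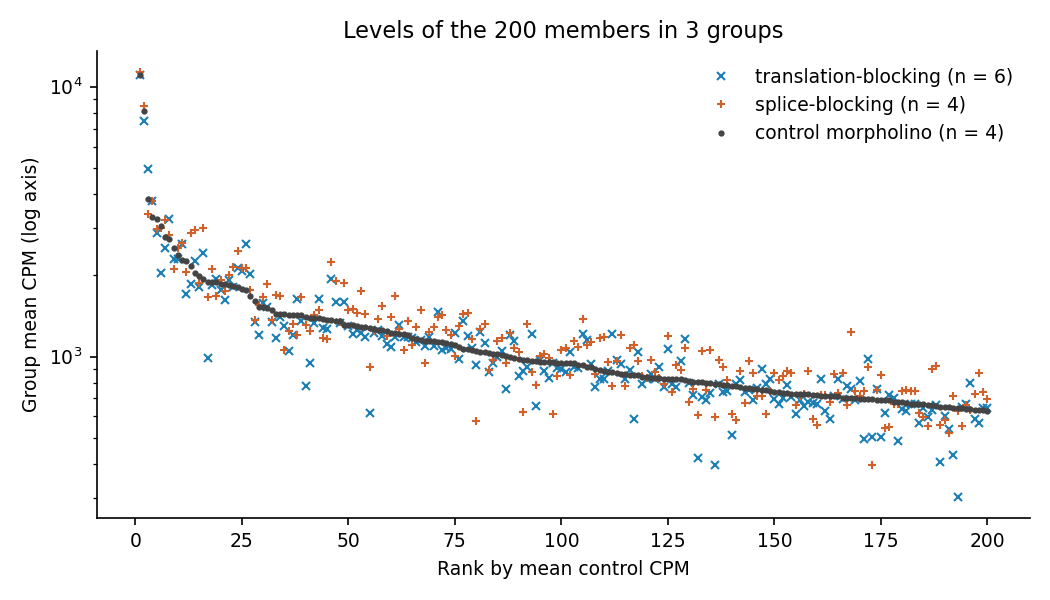
Group mean CPM (log axis) of the 200 members against their rank by mean control CPM, with 1 symbol per group. The control curve, which set the order, drops from 11023 to 627 CPM, and the translation and splice means scatter around it on both sides.

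The highest member was NVE15194. Its control libraries held 10592, 11184, 11596 and 10719 CPM, its splice libraries 10926, 10980.2, 10864 and 12591, and its translation libraries 10196 at the lowest, 10826 at the median and 12453 at the highest. All 3 groups overlapped, and splice library 4 and translation library 6 were the highest. Mean CPM with its SD was 11023 ± 459 for control (n = 4), 11054 ± 786 for translation (n = 6) and 11340.3 ± 835 for splice (n = 4).

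NVE12051, at rank 2, held 7905, 8528, 8128 and 7945 CPM in the control libraries. Splice libraries were at 8068, 7641, 8345 and 9845 CPM, and translation libraries at 6675 at the lowest, 7526 at the median and 7909.9 at the highest. This order of the first 2 members was the same in the mean of each group, at ranks 1 and 2.

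NVE2273, at rank 3, was the least steady of the 10 highest. Its level was 3889, 3507, 5075 and 2914 CPM in controls and 2738, 6152, 2243 and 2344 with the splice morpholino, so splice library 2 stood far above the other splice libraries. Translation libraries were at 2673 at the lowest, 4772 at the median and 7421 at the highest. The coefficient of variation was 23.7% in control, 40.6% in translation and 55.4% in splice libraries. In translation libraries 2 and 5 it passed NVE12051. The groups overlapped, and the log2 fold change of splice over translation was -0.53 ± 0.32 (SE, edgeR adjusted p = 0.29).

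NVE3880, at rank 6, also varied. Control libraries held 3297, 2933, 2499 and 3431 CPM, splice libraries 3413, 1824, 2899.7 and 3803 and translation libraries 1249 at the lowest, 1804 at the median and 3123 at the highest. By mean level it was at rank 16 in translation and rank 7 in splice libraries. Splice over translation came to 0.60 ± 0.23 on the log2 scale (edgeR adjusted p = 0.1), short of the threshold.

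The remaining 6 of the 10 highest (NVE12039, NVE16855, NVE23993, NVE22525, NVE3113 and NVE22048) had control means between 2386 and 3284 CPM. Their group means lay between 2117 CPM, for NVE3113 with the splice morpholino, and 3766 CPM, for NVE12039 with the translation morpholino. Of the 10 highest in control, 7 were among the 10 highest by the translation mean and 7 by the splice mean. None of the 10 (0) was called between the morpholinos by edgeR, where 2 had an unadjusted p under 0.05, and DESeq2 called 0.

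**Figure D2:**
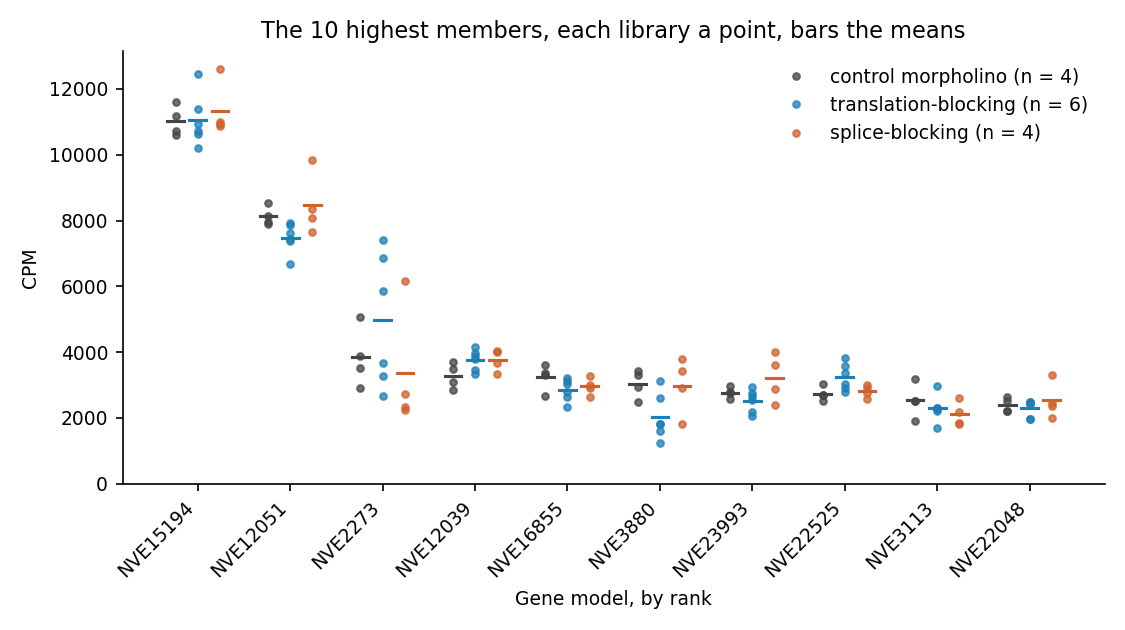
CPM of the 10 highest members, with a point for each library and a bar at each group mean (4 control, 6 translation and 4 splice libraries). NVE15194 and NVE12051 have the highest means in each group, and NVE2273 has the widest scatter within groups.

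Membership held up in part across libraries. Of the 200 members, 186 to 188 were within the 200 highest of each control library, which is set by the choice, 164 to 178 in each translation library and 166 to 178 in each splice library. In every one of the 14 libraries, 123 members were among the 200 highest. By group mean, 179 members stayed among the 200 highest in translation and 178 in splice libraries. The 21 and 22 genes that took their places had 11 in common, and none came from below control rank 416. The lowest member by translation mean was at rank 535, and the lowest by splice mean at rank 356.

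The share of counts held by the members was then compared by library. It was 23.0%, 23.1%, 25.3% and 24.4% in the control libraries, where the members were chosen. In the translation libraries it ran from 22.7% to 24.7%, and in the splice libraries it was 25.8%, 23.8%, 24.2% and 28.3%. The groups overlapped, and splice library 4 was the highest of all. Mean shares were 23.9% ± 1.12 for control (SD, n = 4), 23.5% ± 0.843 for translation (n = 6) and 25.5% ± 2.04 for splice (n = 4). The splice mean was 2.03 percentage points above the translation mean, and 1.11 points without splice library 4. No p is given, since the members were chosen with results known.

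**Figure D3:**
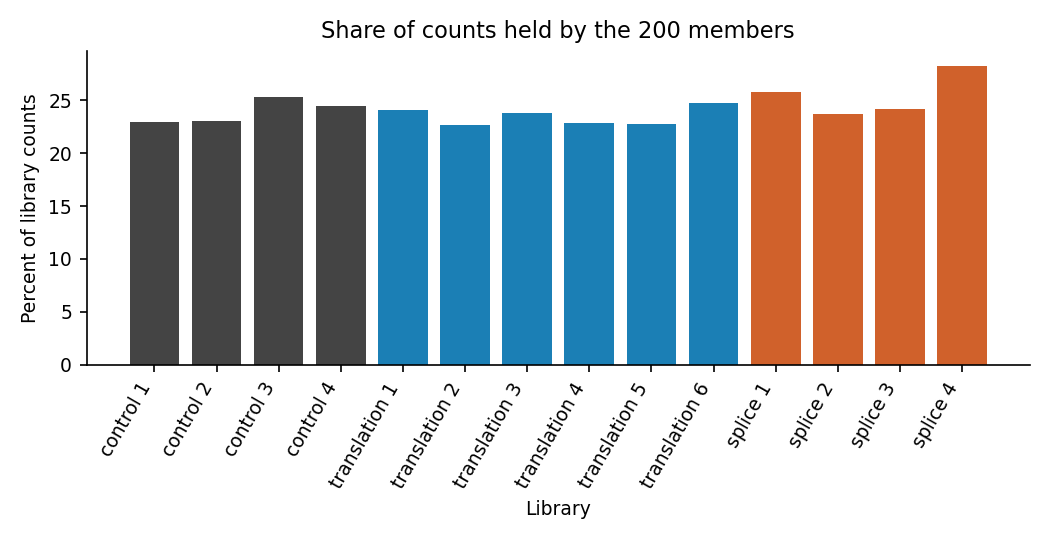
Percent of each library's counts held by the 200 members, with bars coloured by group and starting at 0. Libraries lie between 22.7% and 25.8% except splice 4, at 28.3%.

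The difference was not carried by the first members. The 10 highest held 4.30% ± 0.0691 of counts in control (SD, n = 4), 4.25% ± 0.100 in translation (n = 6) and 4.36% ± 0.260 in splice libraries (n = 4). Splice minus translation was 0.106 points there, and -0.0220 points without splice library 4. Ranks 11 to 50 had the widest gap relative to their spread, at 7.14% ± 0.385 with the splice morpholino (n = 4) against 6.45% ± 0.344 with the translation morpholino (n = 6), a gap of 0.691 points, or 0.503 without splice library 4. The 800 genes ranked below the members held 23.9% ± 0.155 and 24.3% ± 0.386, a gap of -0.418 points.

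Which members differed between the morpholinos was tested with the splice and translation libraries. Their values did not enter the ranking that chose the members, but the choice was made with earlier results of these data known. At a Benjamini-Hochberg adjusted p under 0.05 over all 22109 genes tested, edgeR's quasi-likelihood test called 18 of the 200 members (9%), against 12.8% of all genes tested. Of these, 15 (7.5% of the members, against 6.49% of all genes) were higher in splice than in translation libraries, and 3 (1.5%, against 6.29%) were lower. DESeq2 called 32 (16%), against 16.7% of all genes. The changes were small. Every splice library lay above every translation library for 10 members (5%, against 4.33% of all genes), and below for 5 (2.5%, against 5.82%). By rank, 0 of the 10 highest were called, 3 of ranks 11 to 50, 4 of ranks 51 to 100 and 11 of the lower 100, while 111 of the 800 genes ranked below the members were (13.9%), 47 higher and 64 lower. Among the 18, absolute log2 fold changes ran from 0.36 to 1.08, and 1 exceeded 2-fold, where 604 of all genes called did. The median log2 fold change was 0.18 over the members and 0.01 over all genes tested, and 144 of the 200 (72%) lay above 0, against 51.3% of all genes. The median absolute change was 0.23 over the members and 0.25 over all genes.

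That tilt moved with single splice libraries. Without splice library 4 the members' median log2 fold change was 0.06, with 10 members called, against 7.03% of all genes. Without splice library 2 the median was 0.25, with 33 called, against 12.5% of all genes. In libraries with a title number up to 52970 the median was 0.10, with 10 called (5%, against 4.54% of all genes). The later libraries hold splice library 4 as their only splice library, so the morpholino and that library cannot be told apart there. What the title numbers stand for is not stated, and their part in the result was not tested further.

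**Figure D4:**
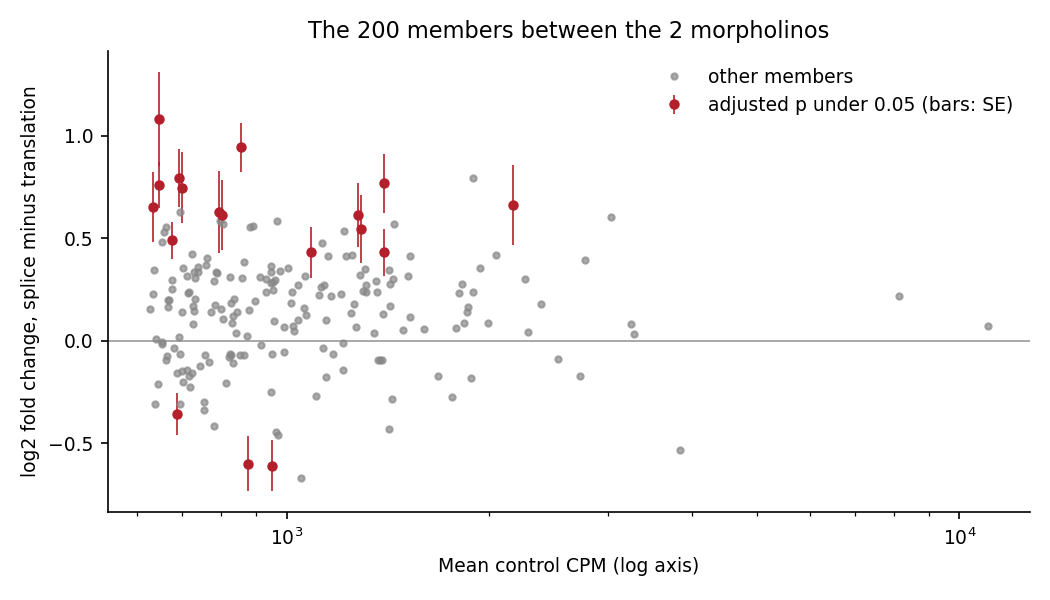
Log2 fold change of splice over translation against mean control CPM (log axis) for the 200 members. The 18 called are in red with their SE, 15 above 0 and 3 below, and no member among the 10 highest is called.

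The widest change between the morpholinos was that of NVE10075, at rank 193. Splice libraries held 492, 584, 789 and 637 CPM and translation libraries 136 at the lowest, 321 at the median and 437 at the highest, while controls held 602, 668, 591 and 727. Every splice library lay above every translation library. The means were 626 ± 125 CPM (SD, n = 4) and 303 ± 110.1 (SD, n = 6), a log2 fold change of 1.08 ± 0.23 (edgeR adjusted p = 0.0064), or 2.12-fold. With a minimum change of 1.5-fold its adjusted p by edgeR was 0.29.

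NVE2172, at rank 117, had the smallest adjusted p of those named. Its splice libraries held 1173, 1155, 1046 and 1027 CPM, its translation libraries 419 at the lowest, 591 at the median and 684 at the highest, and its controls 889, 892, 840.1 and 796, between the other groups. None of the 3 groups overlapped another. The means were 1100.4 ± 74.5 CPM (SD, n = 4) and 585 ± 91.9 (SD, n = 6), and the log2 fold change was 0.94 ± 0.12 (edgeR adjusted p = 0.00016).

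In the other direction, NVE14034 (rank 98) was at 485, 800.1, 685 and 469.9 CPM in the splice libraries. Translation libraries were at 885 at the lowest, 948 at the median and 987 at the highest, and controls at 999, 900.3, 946 and 962. Splice libraries were below all others, and splice libraries 1 and 4 were the lowest. The log2 fold change was -0.61 ± 0.13 (edgeR adjusted p = 0.0055), and in libraries with a title number up to 52970 it was -0.50 (edgeR adjusted p = 0.12).

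NVE11689 (rank 112) held 710.0, 857, 731 and 820.4 CPM with the splice morpholino, close to the 844, 814, 1008 and 845 of controls. Translation libraries were at 1088 at the lowest, 1136 at the median and 1516 at the highest, all above every library of the other groups. Its log2 fold change of splice over translation was -0.60 ± 0.13 (edgeR adjusted p = 0.0087).

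Against control the members can only be described, since the control values chose them. The same fit called 22 members for translation against control (11%, against 20.1% of all genes), of which 7 were higher (9.96% of all genes) and 15 lower (10.1%). With members chosen by the mean of the 3 group means the split turned to 11 higher and 7 lower, and in libraries with a title number up to 52970 to 12 higher and 10 lower (7.51% and 5.94% of all genes there). For splice against control it called 10 members (5%, against 11% of all genes), 7 higher (5.75%) and 3 lower (5.29%). The splice count was 4 without control library 1 (5.72% of all genes), 5 without control library 2 (6.28%), 16 without control library 3 (11.3%), 4 without control library 4 (9.98%) and 6 without splice library 4 (7.62%). Of the splice calls 70% were higher, and 55.6% when counts were scaled to library size alone. DESeq2 called 26 members for translation (13%, against 23.8% of all genes) and 24 for splice (12%, against 14.8%). Both comparisons share the control libraries. The members' median log2 difference from control was -0.01 in translation and 0.19 in splice libraries, the latter 0.06 without splice library 4.

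The members highest and lowest against control among those called give the range of the called changes. With the translation morpholino, NVE339 (rank 26) stood at 2612 ± 190.4 CPM (SD, n = 6) against 1763 ± 85.2 in controls (SD, n = 4), a log2 difference of 0.62. NVE22695 (rank 46) stood at 1946 ± 166 CPM in translation libraries (SD, n = 6), 2243 ± 102 in splice libraries (n = 4) and 1362 ± 311 in controls (n = 4), log2 differences from control of 0.56 and 0.79. Its controls spread from 1085 to 1771 CPM. At the low end, NVE10075 had a log2 difference of -1.05 in translation libraries and 0.03 in splice libraries.

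NVE23716 (rank 55) was at 1198, 1281, 1296 and 1330.0 CPM in controls, and translation libraries were at 439 at the lowest, 631 at the median and 786 at the highest, a log2 difference of -1.01. No translation library reached a control. With the splice morpholino, NVE2223 (rank 168) was the highest, at 1233 ± 164 CPM (SD, n = 4) against 699.9 ± 155 in controls (n = 4), a log2 difference of 0.89. Of the members called, NVE8465 (rank 173) was the lowest, with a log2 difference of -0.72. Its splice libraries were at 401, 394, 406 and 387 CPM and its controls at 714, 674, 674 and 712. NVE14034 followed at -0.57. A member that was not called lay below both, at -0.82.

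Control libraries that took no part in the choice allow a test against control. When 200 genes were chosen on control libraries 1 and 2 alone (190 of them also members) and controls 3 and 4 were set against the morpholinos, edgeR called 4 with the translation morpholino (2%, against 3.62% of all genes) and 1 with the splice morpholino (0.5%, against 2.05%). All of these calls were lower than control. When the roles of the controls were exchanged (189 shared with the members), it called 20 with the translation morpholino, 10 higher and 10 lower, against 15.8% of all genes, and 14 with the splice morpholino, 13 higher and 1 lower, against 10.8%. Controls 1 and 2 carry the earlier title numbers and controls 3 and 4 the later ones. The counts with controls 3 and 4 moved with single libraries, as did those over all genes. The translation count was 2 without translation library 1, 2 or 3 (2.03%, 2.14% and 3.02% of all genes). Without translation library 5 it was 7 (3.37% of all genes), and without translation library 6 it was 8 (4.53%). The splice count was 2 without splice library 2 (1.87% of all genes). Leaving out control library 3 or 4 left 1 control library, so only the members' median log2 differences are given. These were -0.03 and -0.13 for translation and 0.15 and 0.05 for splice, without control library 3 and 4 in turn.

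How steady the members were within a group is a description of replicates. The median coefficient of variation over the 200 members was 9.81% in control, 12.8% in translation and 18.6% in splice libraries. Over all tested genes of at least 5 CPM it was 12.5%, 15.3% and 16.5%. For the 800 genes ranked below the members it was 9.57%, 12.1% and 14.8%. The members thus had a lower median than all genes in the control and translation groups and a higher one in the splice group. Beside the 800 genes ranked below them, their median was higher in every group. These differences were not tested. The highest library exceeded the lowest by more than 1.5-fold for 20 members in controls, 61 in translation and 101 in splice libraries, where 6 translation libraries give a wider range than 4. On TMM-scaled values the order of the groups was the same, but the members' spread was wider in each. Their median SD of log2 CPM rose from 0.14 to 0.17 in control libraries. It rose from 0.18 to 0.21 in translation and from 0.27 to 0.29 in splice libraries. The comparison with all genes above is on CPM without TMM scaling.

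Single libraries stood at the ends of the range more often than an even spread would give. Of the 4 control libraries, control 3 was the highest for 85 members and control 2 the lowest for 77, where an even spread gives 50. Among the splice libraries, splice 4 was the highest for 91 members and splice 2 the lowest for 90. Among the 6 translation libraries, translation 1 was the highest for 57 and translation 5 the lowest for 67, where an even spread gives 33.3.

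Single members ranged from near constant to several-fold. The steadiest in controls were NVE13964, at 766, 781, 767 and 757 CPM, and NVE19572, at 692, 709.6, 701 and 690.1 CPM, with coefficients of variation of 1.26% and 1.30%, where counting error alone gives 0.751% and 0.787% averaged over the controls. Outside the controls they were less even: NVE13964 ran from 632 to 874 CPM in the translation libraries, and NVE19572 from 717 to 991.

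At the other end, NVE448 (rank 80) held 659.6, 474, 2403 and 664 CPM in controls, a coefficient of variation of 86.3%. NVE2618 (rank 87) held 793, 681, 1842 and 709 CPM, a coefficient of 55.6%. Control library 3 was the high one for both, and in the other controls NVE448 averaged below the level of rank 200, so that 1 library decided its membership. Translation libraries of NVE448 ran from 362 to 2138 CPM, a wide range there too.

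Much of this spread was shared between members. After each group's mean was subtracted on the log2 scale, the first component of the members' deviations held 44.7% of the within-group variance and the second 25.7%. Along the first, 74 members correlated below -0.7 and 22 above 0.7 over the 14 libraries. The 74 members had a median pairwise correlation of 0.87, against 0.09 over all 19900 pairs of members, and 1100 of their 2701 pairs were above 0.9. They were picked by these same correlations, CPM values within a library share a denominator, and no test was made. They lay at ranks 4 to 200, with 3 among the 10 highest.

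Together these 74 held 7.72%, 7.36%, 8.72% and 9.02% of the counts in control libraries 1 to 4. In splice libraries 1 to 4 they held 10.7%, 7.08%, 8.30% and 12.0%, and in the translation libraries 6.96% to 9.17%. Splice library 4 was the highest and splice library 2 the lowest of the splice libraries. This follows from the choice, since their scores on the first component were the extremes (-0.44 and 0.54). Leaving out either moved the count of calls between the morpholinos more than any other library did. Whether the 74 members had a part in that was not tested. The 22 members at the other end held 1.86% in splice library 4 and 2.61% in splice library 2. Of the 74, 2 were called between the morpholinos, both higher with the splice morpholino, where 12.8% of all genes were called. Of the 73 members outside every such set, 11 were called. The median log2 fold changes of these sets were 0.29 and 0.07. The 74 were picked for their deviations within groups, which also enter the error of the test. Their count therefore cannot be set against that of the 73.

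The second component set other libraries apart. The 27 members that followed it held 3.32% of counts in control library 3 against 2.43% to 2.64% in the other controls, and 3.40% in translation library 6 against 2.00% in translation library 4. NVE448, NVE2618 and NVE22695 were among these 27. Depth and title number were not set against either component.

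**Figure D5:**
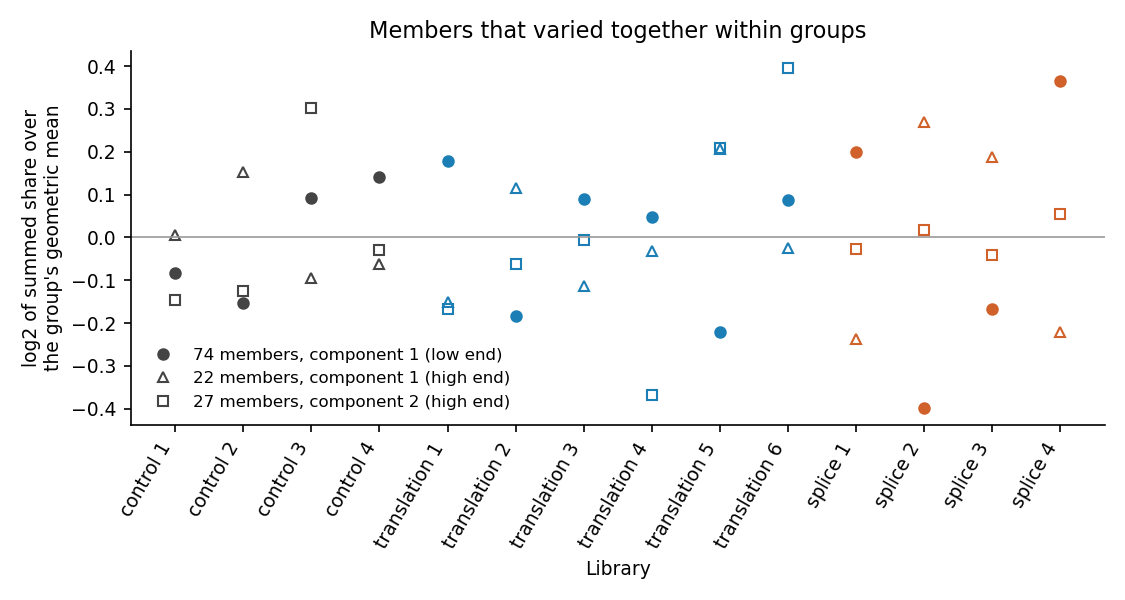
Summed share of counts of 3 sets of members in each library, as the log2 ratio to the geometric mean of the library's group; symbols mark the sets and colours the groups. The 74 members (filled circles) are lowest in splice 2 and highest in splice 4, where the 22 members (triangles) go the other way, and the 27 members (squares) are highest in translation 6 and lowest in translation 4.

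The members whose pattern was most like that of NVE15194 were NVE23054, with r = 0.85 over 14 libraries after group means were subtracted (points share a library and its total), and NVE8462, with r = 0.83. Spearman's rho was 0.77 and 0.56. Without splice library 4 and translation library 6, the libraries farthest from the median of NVE15194, r was 0.75 and 0.69 over 12 libraries.

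Identifiers with consecutive numbers occurred in 3 pairs of members, examined after their values were seen. NVE15134 and NVE15135 moved almost as one, with r = 1.00 over 14 libraries after group means were subtracted and a ratio of 1.64 to 1.84 between them in every library. The other pairs, NVE8465 with NVE8466 and NVE8462 with NVE8463, had r = 0.65 and r = 0.33. The ratio of NVE8466 to NVE8465 ran from 0.526 to 1.68 over the libraries, so the order of that pair changed between libraries. Whether any of these are neighbouring or near-identical genes that share reads was not tested, and their levels are uncertain to that extent.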

How the data were processed

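RNA-seq counts of 14 libraries of Nematostella vectensis gastrulae were used: 4 control, 6 translation-blocking and 4 splice-blocking morpholino libraries, grouped by their labels. The authors deposited raw counts per gene model and library. Tools are listed without roles in the submitters' processing notes (STAR 2.5.3a, Subread 1.6.2 with featureCounts, cutadapt 1.8.1, DESeq2 1.6.0). Of the counting, neither annotation nor strand setting is given in the sources used here; overlapping, antisense and near-identical genes were not told apart. Spike-in rows (92, with a sum of 0) were dropped. No per-sample column lacked a sample (0 columns). ChIP-seq peaks were not used here, since the gene models have no positions. The protocol states 6 replicates per group; fewer control and splice libraries are listed and all of them were used.

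CPM was the count over the library's summed count of gene models, times 1000000. Members were the 200 highest by mean CPM of the 4 controls. Members and lists were chosen with earlier results of these data known. Genes were tested with edgeR 4.0.16 (quasi-likelihood, TMM, filterByExpr, 3 group means, 11 residual degrees of freedom) in R 4.3.3, two-sided, with Benjamini-Hochberg adjustment over 22109 genes. SE is the absolute log2 fold change over the square root of F. A planned permutation test of the summed share was left out, because it would be a p for a score over chosen members. The main edgeR fit was tested on simulated counts, for splice against translation only. The alternative fits and the comparisons with control were not simulated. DESeq2 1.42.0, Python 3.11.15 and numpy 2.4.6 served for the alternatives and summaries. Named genes were the 10 highest members, the 2 genes on each side of the boundary, the 2 highest and 2 lowest called per contrast, the 2 most and 2 least variable in controls, and the 2 most like the highest; the consecutive identifiers were added after their values were seen.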

Additional observations from a re-analysis of the deposited data

Results flagged for a closer look

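Among 87 sets of library values (27 identifiers and 2 shares of counts in each of 3 groups), 8 held a library far from the others of its group; chance gives about 1 in 20, or 4.35 of the 87. In control library 3, NVE448 (2403 CPM, gap over range 0.902), NVE2618 (1842 CPM, 0.903) and NVE11689 (1008 CPM, 0.839) stood above the other controls. The identifiers were named from values of these same libraries, NVE448, NVE2618 and NVE13964 for their spread in controls and NVE11689 as called. Sets of a group also share its libraries. The chance rate therefore need not hold, and 8 against 4.35 is not read as an excess. In splice library 2, NVE2273 was high (6152 CPM, 0.873) and NVE13964 low (583 CPM, 0.903). NVE15194 was high in splice library 4 (12591 CPM, 0.933) and NVE11689 in translation library 4 (1516 CPM, 0.632). The share of the 10 highest members was low in translation library 5 (4.06%, 0.696).

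The morpholinos themselves differed for 18 members by edgeR, as given above. The log2 differences, splice minus translation, were 1.08 for NVE10075, 0.94 for NVE2172, -0.60 for NVE11689 and -0.61 for NVE14034.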

How the results depend on the processing

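Counts of members called are given for translation against control, splice against control, and splice against translation, which were 22, 10 and 18. DESeq2 called 26, 24 and 32 (23.8%, 14.8% and 16.7% of all genes). An edgeR adjusted p under 0.01 left 12, 3 and 8 (8.66%, 4.48% and 4.44% of all genes). The 100 highest members gave 8, 4 and 7, against 20.1%, 11% and 12.8% of all genes. With a minimum change of 1.5-fold edgeR called 0, 0 and 0 members, with 6, 3 and 5 at an unadjusted p under 0.05, and 2.22%, 1.38% and 0.706% of all genes. The title number as a covariate gave 22 for splice against control (15.4% of all genes). Libraries with title numbers up to 52970 gave 22, 12 and 10, against 13.5%, 11.3% and 4.54% of all genes. The later ones, with 1 splice library, gave 0, 0 and 0 members by edgeR, as for nearly all of the 22697 genes (19, 0 and 0 called). There 14, 42 and 79 members had an unadjusted p under 0.05 (15.7%, 7.42% and 14.6% of all genes), and DESeq2 called 2, 0 and 16 (3.34%, 0.704% and 2.46%); nothing about the members is read from these. Leaving out 1 library gave 15 to 26, 4 to 16 and 10 to 33. The shares of all genes called moved too, over 11% to 20.6%, 5.72% to 13% and 7.03% to 13.2%. Other scalings, no filter on low counts, and members chosen by the mean of the 3 group means kept each total within 1.5 times its value; the direction of the translation calls turned with the last, as given above. With held-out controls, DESeq2 called 15 and 3 (6.81% and 4.05% of all genes) in place of 4 and 1. Choosing on controls 3 and 4 gave 20 and 14 (15.8% and 10.8% of all genes). Leaving out 1 morpholino library gave 2 to 8 and 1 to 2, where 2.03% to 4.53% and 1.32% to 2.68% of all genes were called.

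The gap in the members' share of counts between splice and translation, 2.03 points, was 4.86 points in the later libraries, with 1 splice library, and 1.05 in the earlier ones, and 1.11 to 2.62 with 1 library left out. For the 10 highest it was 0.541 and -0.0735 points, and -0.0220 to 0.165. The cause was not tested. The members' median SD of log2 CPM was 0.14, 0.18 and 0.27 in the control, translation and splice groups. It was 0.11 to 0.14, 0.17 to 0.19 and 0.23 to 0.29 with 1 library left out, and 0.17, 0.21 and 0.29 on TMM-scaled CPM. The 4 members named between the morpholinos kept their sign under all 23 alternatives run for each, and 9 of those 92 values missed the threshold, 8 of them with the 1.5-fold minimum or in the later libraries. No paired analysis was made, because the labels give no replicate numbers that groups share. Each splice library carries the title number just after that of a translation library. Control libraries 1 and 2 come just after splice libraries 1 and 3. Whether such neighbours belong together is not stated and was not tested. Counting error is at most 2.19% per member and library, a bound set outside the controls, where the lowest count was 7228. For NVE13964, the steadiest member in controls, it was 0.751% there, which is not small beside its coefficient of variation of 1.26%.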
